A study of Mus musculus with 4 samples.

Results

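The transcriptional arm of the Hippo pathway was followed through 10 genes in basal and luminal cells sorted from developing mouse prostate, at the tips of its ducts. The genes were taken by name from the 49671 genes of the deposited table: the coactivators Yap1 and Wwtr1 (the gene of TAZ), the DNA-binding factors Tead1, Tead2, Tead3 and Tead4, and the targets Ctgf, Cyr61, Amotl2 and Lats2. Ctgf and Cyr61 are also called Ccn2 and Ccn1. All 10 passed the filter on low values, and they are described in 4 libraries called basal 1, basal 3, luminal 3 and luminal 2, with the replicate numbers of the labels.

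The mice were untreated males of strain CD-1, aged postnatal day 10 to 13 by the labels, while the study's methods call their background mixed and give a slightly younger upper age. The ventral lobes of several mice were cut to separate the tips from the main ducts. Basal cells were sorted by FACS as EpCAM high and CD49f high, and luminal cells as EpCAM high and CD49f low, after removal of cells positive for CD45, CD31 or CD140a. The study calls the basal cells multipotent and the luminal cells basal-derived, while the sort itself rested on these surface markers and not on a lineage label. No genotype, transgene or treatment separated the groups, and whether the 2 libraries of a group came from separate animals is not given in the sources used here.

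In the Hippo pathway the kinases MST1 and MST2, with their adaptor SAV1, activate LATS1 and LATS2, which work with MOB1 and phosphorylate YAP and TAZ. Phosphorylated YAP and TAZ are kept in the cytoplasm or degraded, and the unphosphorylated proteins enter the nucleus and act on target genes through the TEAD factors. Several targets, among them LATS2 and AMOTL2, inhibit YAP in turn. This control acts mainly on the proteins, which RNA levels do not show. YAP and TAZ are best known for organ growth, for the response of cells to stiffness and shape, and for regeneration, and in several stratified epithelia nuclear YAP is a feature of basal cells.

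All levels are normalized counts, that is, reads on a gene scaled by the authors to a common total per library. A single read was worth 6.26 and 6.50 in basal 1 and 3, 19.4 in luminal 3 and 31.2 in luminal 2, which corresponds to 3194307, 3079274, 1036685 and 643267 reads on genes. In every library a small part of the low values did not lie on this spacing, so read numbers here are estimates, and a separate check of whole reads held for the other libraries but not for luminal 2. The basal libraries were the deeper ones, and depth and cell type cannot be told apart. Nuclear protein-coding genes held 76.0% and 74.7% of the signal in basal 1 and 3, 57.3% in luminal 3 and 64.2% in luminal 2, and the part of this in the differences below was tested only by rescaling: the median of the 10 genes on the log2 scale was then -0.53 in place of -0.84, and that of all genes 0.21 in place of -0.10. The labels were checked first: 6 basal markers (such as Krt5 and Trp63) summed to 85022 and 66030 in the basal libraries and to 8945 and 6730 in the luminal libraries, and 6 luminal markers (such as Krt8 and Krt19) summed to 14779 and 18655 against 49761 and 30446. RNA of stromal genes was also present. Pdgfra, the gene of the CD140a antigen used to remove cells, stood at 3307 and 4144 in the basal libraries, 2575 in luminal 3 and 8383 in luminal 2, and none of the 7 fibroblast and 6 smooth muscle markers was at 0 in any library. Dcn, which encodes the matrix proteoglycan decorin, was the fibroblast marker with both basal libraries higher: it stood at 45830 and 47724 in the basal libraries, 5770 in luminal 3 and 20256 in luminal 2 (log2 fold change -2.11, luminal over basal, adjusted p 0.143 by limma, 0.0391 by edgeR and 0.00890 by DESeq2). Its part in the differences below was not tested.

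Among the 10 genes, Yap1, Tead1, Tead3, Ctgf, Cyr61 and Lats2 were higher in both basal libraries than in either luminal library, Tead4 was higher in both luminal libraries, and Wwtr1, Tead2 and Amotl2 overlapped between the groups. Of all 18737 genes tested, 27.3% had both basal libraries higher and 23.6% both luminal libraries higher. The filter on single libraries lay under the value of 1 read in the luminal libraries, so genes with 1 luminal read could be tested. Of the 12544 genes averaging 100 or more, 3931 had both basal libraries higher and 2648 both luminal libraries higher. By group averages 1609 of these were at least 2-fold higher in basal and 1435 in luminal cells. By the ratio of group averages, Tead1, Ctgf, Cyr61 and Lats2 were at least 2-fold higher in basal cells, as were 16.3% of all genes, and Tead4 was at least 2-fold higher in luminal cells, as were 18.3%. The basal count of 4 became 3 without luminal 3, where Lats2 fell under 2-fold, and 6 without luminal 2. The luminal count of 1 became 0 without basal 1, where Tead4 fell under 2-fold, and 2 without luminal 3. None of the 10 genes passed the threshold of 0.05 on the adjusted p of limma, which 0.694% of all genes passed, with 0.438% higher in basal and 0.256% higher in luminal cells. At an unadjusted p under 0.05, 5 of the 10 genes were lower in luminal cells and 0 were higher, where 18.5% of all genes passed in either direction and 10.7% were higher in basal cells. Run on recovered reads, edgeR called 2 of the 10 (Tead1 and Ctgf) higher in basal cells, with 2.72% of all genes, and 0 higher in luminal cells, with 2.36%. DESeq2 called 3 (Tead1, Ctgf and Cyr61) higher in basal cells and 0 higher in luminal cells, with 3.11% and 2.97% of the 13651 genes to which it gave an adjusted p. The median log2 fold change of luminal over basal, on the log2(value + 1) scale used for every fold change here, was -0.84 over the 10 genes and -0.10 over all genes tested. Over the genes averaging 100 or more it was -0.14. With 2 libraries against 2, an exact permutation test cannot go below p = 0.333.

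**Figure D1:**
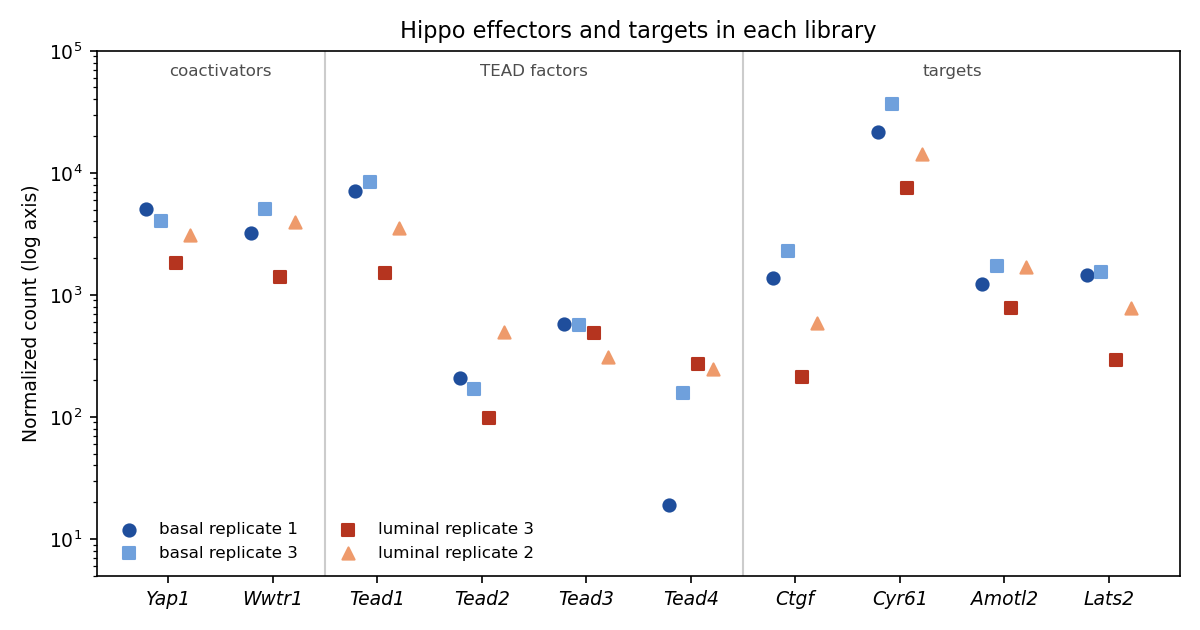
Normalized count (log axis) of each of the 10 genes in the 4 libraries, with basal libraries in blue and luminal libraries in red and orange. Yap1, Tead1, Tead3, Ctgf, Cyr61 and Lats2 have both basal points above both luminal points. Tead4 has its lowest point in basal 1 at 19, and luminal 2 lies above luminal 3 for 8 of the 10 genes.

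Yap1, on chromosome 9 (GRCm38, 7931999 to 8004596, minus strand), was present in all 4 libraries. Its values were 5048 and 4034 in basal 1 and 3, 1839 in luminal 3 and 3116 in luminal 2, from 806, 621, 95 and 100 reads. Both basal libraries were above both luminal libraries, with averages of 4541 ± 717 and 2478 ± 903 (SD, n = 2 each), and luminal 2 lay closer to basal 3 than to luminal 3. On the log2 scale luminal over basal was -0.91 (SE 0.32, 95% interval -1.73 to -0.10) with a limma adjusted p of 0.227. It ranged from -1.29 without luminal 2 to -0.53 without luminal 3, so the direction was the same whichever library was left out.

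Wwtr1, on chromosome 3 (57455649 to 57575910, minus strand), encodes TAZ, the paralog of YAP that binds the same TEAD factors. Its normalized counts were 3206 and 5008 in basal 1 and 3, 1394 in luminal 3 and 3958 in luminal 2. The groups overlapped, because luminal 2 was above basal 1, and the lowest value was that of luminal 3. Its log2 fold change was -0.77 (SE 0.54, 95% interval -2.12 to 0.58) with a limma adjusted p of 0.487. It was -0.02 without luminal 3 and -1.52 without luminal 2, and -1.09 without basal 1 and -0.45 without basal 3.

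Levels of the 2 coactivators were compared per exon kilobase, since the annotated exons of Yap1 cover 9257 bases and those of Wwtr1 4779. The level of Yap1 was 491 ± 77.5 normalized counts per kilobase for basal and 268 ± 97.5 for luminal cells, and that of Wwtr1 was 859 ± 267 and 560 ± 379 (SD, n = 2 each). The ratio of Wwtr1 to Yap1 per kilobase was 1.23 and 2.40 in basal 1 and 3, 1.47 in luminal 3 and 2.46 in luminal 2. The ratio therefore did not follow cell type, with group averages of 1.82 ± 0.830 in basal and 1.96 ± 0.702 in luminal cells (SD, n = 2 each), and its higher values fell in basal 3 and luminal 2. These were also the libraries with more fibroblast marker RNA: 7 fibroblast genes summed to 100654 in basal 1, 207389 in basal 3, 71311 in luminal 3 and 197198 in luminal 2. The part of that RNA in the ratio was not tested. By the length of the longest transcript, 5282 bases for Yap1 and 4697 for Wwtr1, the ratio was 1.06 in basal and 1.14 in luminal cells, so the higher level of Wwtr1 rested on the length used.

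**Figure D2:**
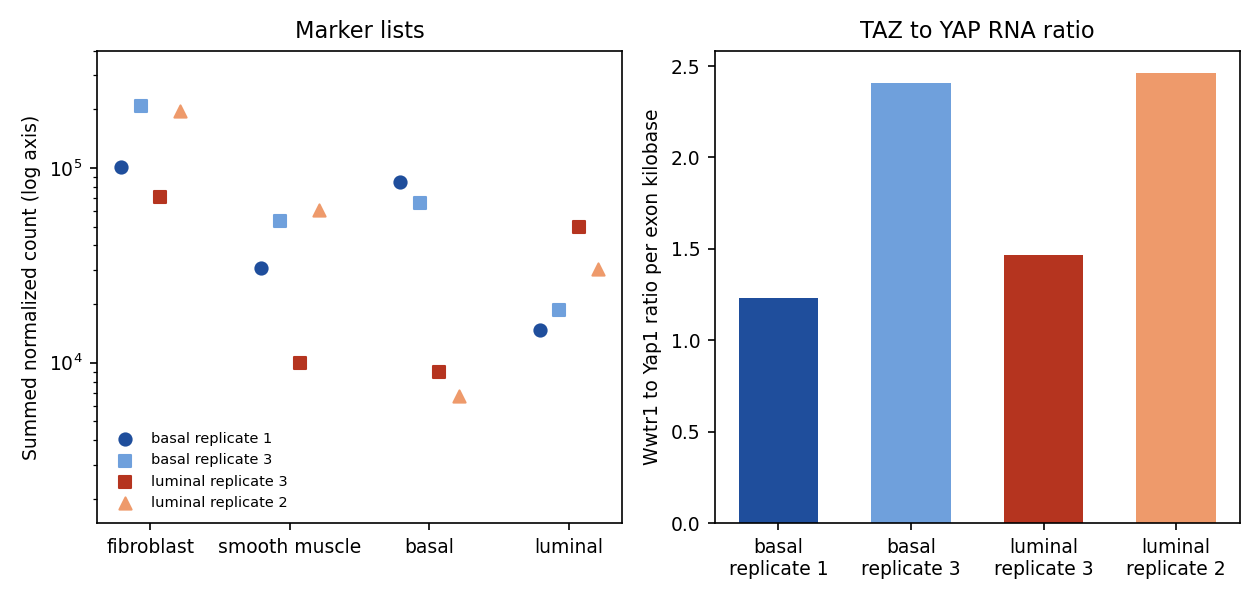
Left, summed normalized counts (log axis) of fibroblast, smooth muscle, basal and luminal marker lists in each library. Right, the ratio of Wwtr1 to Yap1 per exon kilobase in each library, with bars from 0; the ratio is highest in basal 3 and luminal 2, the 2 libraries with the highest fibroblast sums.

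The genes whose profile over the 4 libraries was most like that of each coactivator were sought among 3530 other genes averaging at least 1000 normalized counts. Likeness was the root mean squared difference of log2(value + 1), each profile centred on its own mean, and it is a description over 4 libraries. Closest to Yap1 were Mob1b (0.031), Hs2st1 (0.060) and Bbx (0.064), and 201 genes lay within 0.2. Mob1b encodes an adaptor of the LATS kinases, and its values were 3382 and 2546 in basal 1 and 3, 1181 in luminal 3 and 2026 in luminal 2. Close to Wwtr1 were Tshz2 (0.033) and Fblim1 (0.043), with 38 genes within 0.2. Tshz2, a zinc finger factor, stood at 4490, 6749, 1975 and 5329 in the same order and shared the low value of luminal 3.

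Tead1 carried most of the TEAD RNA in basal cells. The TEAD factors share a DNA-binding domain that recognizes sites of the type GGAATG, and they need a coactivator such as YAP or TAZ to activate transcription. Tead1 lies on chromosome 7 (112679318 to 112906807, plus strand) and stood at 7096 and 8457 in basal 1 and 3, 1510 in luminal 3 and 3521 in luminal 2, from 1133, 1302, 78 and 113 reads. Both basal libraries were above both luminal libraries, and the basal average of 7777 ± 962 was 3.09 times the luminal average of 2516 ± 1422 (SD, n = 2 each). On the log2 scale luminal over basal was -1.75 (SE 0.43, 95% interval -2.83 to -0.67). Its adjusted p was 0.10 by limma, 0.0244 by edgeR and 0.0141 by DESeq2 (the latter pair on recovered reads), and within limma it was 0.0313 under a stricter filter and 0.0479 with a pseudocount of 32, so the call depended on the settings. Leaving out a library gave log2 fold changes from -2.36 (without luminal 2) to -1.14 (without luminal 3).

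Tead2, on chromosome 7 (45215753 to 45233644, plus strand), was low and gave no direction. It stood at 207 and 169 in basal 1 and 3, 97 in luminal 3 and 499 in luminal 2, from 33, 26, 5 and 16 reads. The luminal libraries lay on either side of both basal libraries. The log2 fold change was 0.24 (SE 0.87, 95% interval -1.95 to 2.42, limma adjusted p 0.905), and it was -0.94 without luminal 2 and 1.41 without luminal 3.

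Tead3, on chromosome 17 (28331671 to 28350817, minus strand), was the least different of the TEAD genes without overlap. It stood at 576 and 565 in basal 1 and 3, 484 in luminal 3 and 312 in luminal 2, from 92, 87, 25 and 10 reads. The basal libraries were nearly equal and above both luminal libraries, and here luminal 2 was the lower of the luminal libraries. By counting error, 95% Poisson intervals were 313 to 715 in luminal 3 and 149 to 573 in luminal 2. These overlapped each other and those of the basal libraries (464 to 707 in basal 1 and 453 to 697 in basal 3). The log2 fold change of Tead3 was -0.55 (SE 0.38, 95% interval -1.51 to 0.40, limma adjusted p 0.481), and it was -0.24 without luminal 2 and -0.87 without luminal 3.

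Tead4, on chromosome 6 (128224288 to 128300823, minus strand), had the opposite order. It stood at 19 and 156 in basal 1 and 3, 271 in luminal 3 and 249 in luminal 2, from only 3, 24, 14 and 8 reads. Both luminal libraries were above both basal libraries, and the value of basal 1 rested on 3 reads. The log2 fold change was 2.22 (SE 1.10, 95% interval -0.55 to 4.99, limma adjusted p 0.357), and it was 0.73 without basal 1 and 3.70 without basal 3. The luminal average was 2.97 times the basal average. At 8 to 24 reads in the other libraries the size of this difference was poorly determined at this depth.

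Per exon kilobase the summed TEAD level was 657 and 786 in basal 1 and 3, 279 in luminal 3 and 479 in luminal 2, with averages of 722 ± 91.1 and 379 ± 142 (SD, n = 2 each). Tead1 made up 79.6% and 79.3% of it in basal 1 and 3, 39.9% in luminal 3 and 54.1% in luminal 2. The share of Tead1 was thus higher in both basal libraries, by averages of 79.4% ± 0.196 and 47.0% ± 10.1 (SD, n = 2 each). The rest of the luminal TEAD RNA was divided differently in each luminal library: Tead4 and Tead3 made up 27.0% and 25.8% in luminal 3, while Tead2 made up 21.7%, Tead4 14.4% and Tead3 9.69% in luminal 2. In the basal libraries Tead3 made up 13.1% and 10.7%, Tead2 6.58% and 4.49%, and Tead4 0.803% and 5.52%. The share of Tead4 was higher in both luminal libraries, as was that of Tead2, whose lower luminal value was 7.26% in luminal 3, and the share of Tead3 overlapped between the groups. That Tead2 value rested on 5 reads: as a share of TEAD reads its 95% Wilson interval was 1.76% to 9.24%, which overlapped those of basal 1 (1.87% to 3.65%) and basal 3 (1.24% to 2.63%).

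Counting error was taken into account on reads, without division by length. Tead1 held 89.8% of 1261 TEAD reads in basal 1 (95% Wilson interval 88.1% to 91.4%) and 90.5% of 1439 in basal 3 (88.9% to 91.9%). It held 63.9% of 122 reads in luminal 3 (55.1% to 71.9%) and 76.9% of 147 in luminal 2 (69.4% to 83.0%). The intervals of the basal libraries lay above those of the luminal libraries, and the 2 luminal intervals overlapped. They cover counting error only. In bulk samples fewer cells of a type and less RNA per cell cannot be told apart, and this holds for every level given here.

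**Figure D3:**
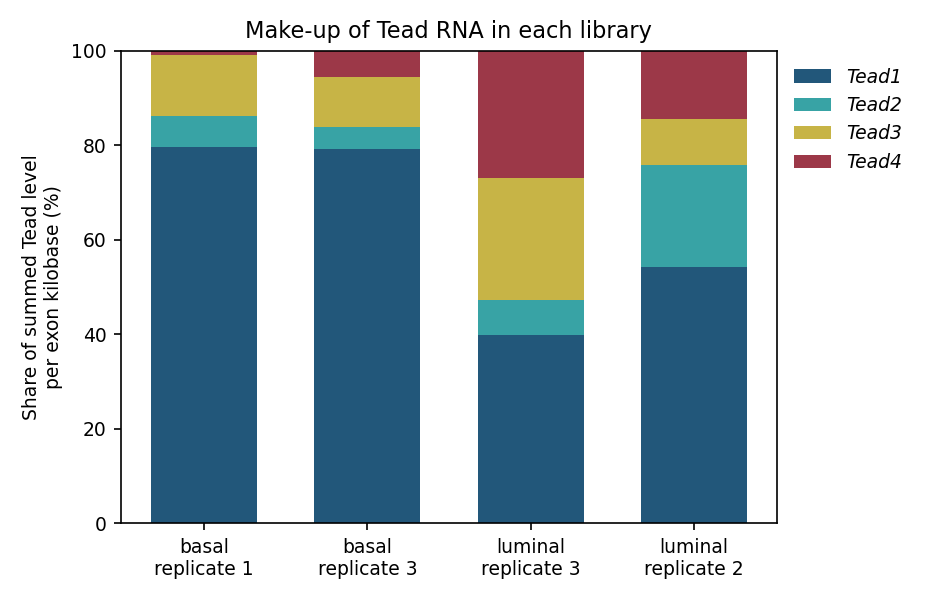
Share of each Tead gene in the summed TEAD level per exon kilobase, in percent, with a stacked bar per library. Tead1 fills 79.6% and 79.3% of the basal bars and 39.9% and 54.1% of the luminal bars.

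The targets were led by Cyr61, a secreted matrix-associated protein that is induced quickly by YAP and TAZ and also by serum and stress. Cyr61 lies on chromosome 3 (145646976 to 145649981, minus strand) and stood at 21600 and 36961 in basal 1 and 3, 7454 in luminal 3 and 14148 in luminal 2. Both basal libraries were above both luminal libraries, with averages of 29281 ± 10862 and 10801 ± 4733 (SD, n = 2 each). For Cyr61 the log2 fold change was -1.46 (SE 0.43, 95% interval -2.53 to -0.39), with an adjusted p of 0.156 by limma, 0.0517 by edgeR and 0.0343 by DESeq2. Per exon kilobase Cyr61 had the highest level of the 10 genes in each library, 14503 ± 5380 in basal and 5350 ± 2344 in luminal cells.

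Ctgf, a secreted protein of the same family, differed most among the targets. It lies on chromosome 10 (24595442 to 24598683, plus strand) and stood at 1378 and 2274 in basal 1 and 3, 213 in luminal 3 and 592 in luminal 2, from 220, 350, 11 and 19 reads. The groups did not overlap, and the basal average of 1826 ± 634 was 4.54 times the luminal average of 403 ± 268 (SD, n = 2 each). The log2 fold change was -2.31 (SE 0.57, 95% interval -3.74 to -0.89), with an adjusted p of 0.0990 by limma, 0.0180 by edgeR and 0.00648 by DESeq2. It was -1.58 without luminal 3 and -3.05 without luminal 2. Of the exon bases of Ctgf, 665 (23.2%) are shared with the antisense gene Gm15270, which stood at 495, 831, 136 and 280 in the same order. Whether the counting used strand is not stated, so reads of the pair in these bases cannot be told apart.

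Lats2 is both a target and the kinase that phosphorylates YAP and TAZ. It lies on chromosome 14 (57689662 to 57758388, minus strand) and stood at 1453 and 1539 in basal 1 and 3, 290 in luminal 3 and 779 in luminal 2. The basal libraries were close to each other and above both luminal libraries, with averages of 1496 ± 60.8 and 535 ± 346 (SD, n = 2 each). For Lats2 the log2 fold change was -1.65 (SE 0.51, 95% interval -2.93 to -0.38), with an adjusted p of 0.173 by limma, 0.0657 by edgeR and 0.106 by DESeq2. It was -0.94 without luminal 3 and -2.36 without luminal 2. In the annotation used for coordinates 2955 of its exon bases (42.4%) are shared with the gene model Gm49361, which has no row in the deposited table.

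Amotl2, a junction protein that binds and retains YAP, did not separate the groups. It lies on chromosome 9 (102716672 to 102733418, plus strand) and stood at 1227 and 1734 in basal 1 and 3, 774 in luminal 3 and 1683 in luminal 2. Luminal 2 lay between the basal libraries. The log2 fold change was -0.35 (SE 0.44, 95% interval -1.46 to 0.75, limma adjusted p 0.685), and it was 0.21 without luminal 3.

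**Figure D4:**
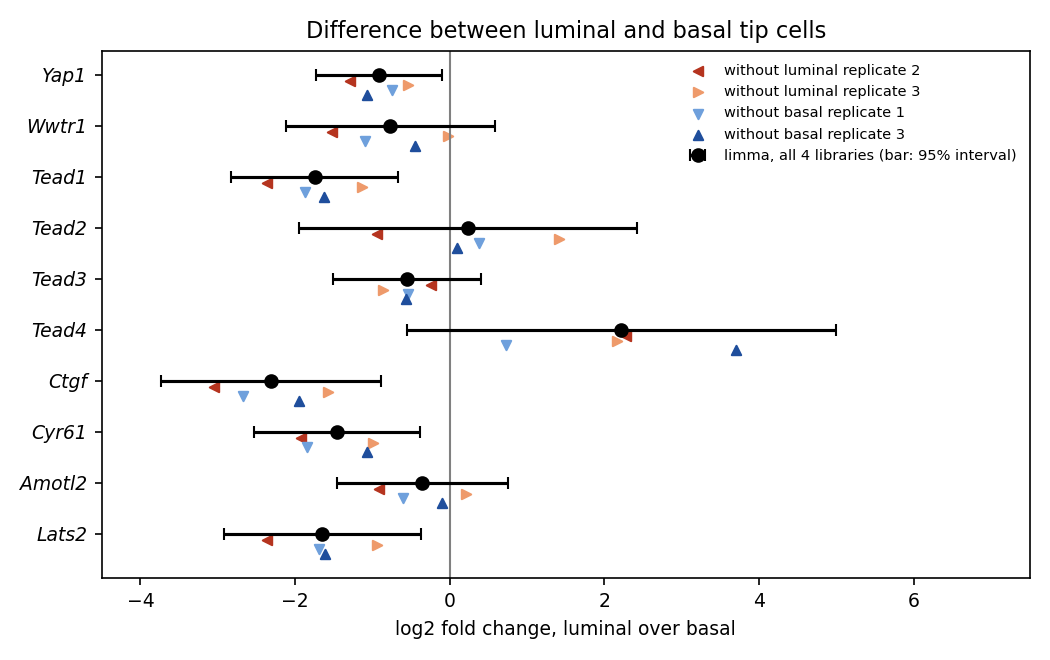
Log2 fold change of luminal over basal for each of the 10 genes; black points are the limma estimates from all 4 libraries with 95% intervals, and coloured triangles are the estimates without 1 library. The intervals of Yap1, Tead1, Ctgf, Cyr61 and Lats2 lie below 0, and Tead2 and Amotl2 have estimates on both sides of 0.

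The 2 luminal libraries differed from each other in these genes. Luminal 2 was above luminal 3 for 8 of the 10 genes, all but Tead3 and Tead4, while this held for 52.7% of all genes tested. The median log2 ratio of luminal 2 to luminal 3 was 1.17 over the 10 genes and 0.08 over all genes. Against the basal average, the median log2 difference was -1.41 for luminal 3 and -0.70 for luminal 2. Of the 6 smooth muscle markers 5 moved with this difference, and Des did not (3207 in luminal 3 and 2834 in luminal 2). Their sum was 9984 in luminal 3 and 61015 in luminal 2, 6.11 times higher, and it was 30687 and 53240 in basal 1 and 3. The fibroblast sum was 2.77 times higher in luminal 2 than in luminal 3, and 11 genes of the response to dissociation (such as Fos and Jun) summed to 352443 and 192331 in basal 1 and 3, 130755 in luminal 3 and 202057 in luminal 2. Of 5 endothelial markers, which summed to between 581 and 1745, Cdh5 was listed at 0 in luminal 3 and stood at 249 in luminal 2, and Pecam1 (the gene of CD31) stood at 833, 637, 174 and 499 in basal 1, basal 3, luminal 3 and luminal 2. Kdr was lower in luminal 2 (93) than in luminal 3 (213), and Tek was higher in the luminal libraries (155 and 312) than in the basal libraries (75 and 71). Of 5 immune markers, which summed to between 833 and 3350, Ptprc (the gene of CD45) was listed at 0 in both luminal libraries and Lyz2 in basal 3, while Cd3e, at 639 to 2173, made up most of the sum. Ctgf, Cyr61, Tead1 and Wwtr1 are also expressed by stromal cells, and the part of stromal RNA, of dissociation and of depth in these differences was not tested.

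Promoter windows from RefSeq (GRCm38.p6), 250 bases before and 50 after each start, were at hand for 7 of the 10 genes, and those of Tead1, Tead4 and Ctgf were not used here. GGAATG, the core of the TEAD site, was searched on both strands (CATTCC on the other strand), with no other motif. It was found in at least 1 window of 6 of the 7 genes, Yap1, Wwtr1, Tead3, Cyr61, Amotl2 and Lats2, beside 16.6% of all 27025 genes with a window. By window it was found in 8 of 11, beside 14.7% of all 32851, but windows of a gene can overlap, and both Wwtr1 windows hold the same site. The first base of the match was 141 bases before the start of Yap1, 103 before that of Cyr61 and 65 before that of Amotl2, and 4 bases after a start of Lats2. The 250 bases before the start are shown for both coactivators and for Cyr61, the most abundant target, because these genes had a match there and no annotated exon on the same strand. They are given 5′ to 3′ on the strand of the gene, with the motif in capitals, for Yap1 at chr9:8004597-8004846 (minus strand), Wwtr1 at chr3:57575911-57576160 (minus strand) and Cyr61 at chr3:145649986-145650235 (minus strand).
Yap1: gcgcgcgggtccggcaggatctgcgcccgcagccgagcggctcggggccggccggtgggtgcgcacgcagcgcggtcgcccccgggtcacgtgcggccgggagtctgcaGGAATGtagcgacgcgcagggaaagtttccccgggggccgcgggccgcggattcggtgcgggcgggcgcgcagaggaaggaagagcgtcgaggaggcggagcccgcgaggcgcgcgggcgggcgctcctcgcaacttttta
Wwtr1: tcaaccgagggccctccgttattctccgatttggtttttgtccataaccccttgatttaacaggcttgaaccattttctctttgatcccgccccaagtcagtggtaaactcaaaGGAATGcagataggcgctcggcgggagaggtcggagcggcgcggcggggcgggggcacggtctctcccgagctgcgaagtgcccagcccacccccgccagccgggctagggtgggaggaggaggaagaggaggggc
Cyr61: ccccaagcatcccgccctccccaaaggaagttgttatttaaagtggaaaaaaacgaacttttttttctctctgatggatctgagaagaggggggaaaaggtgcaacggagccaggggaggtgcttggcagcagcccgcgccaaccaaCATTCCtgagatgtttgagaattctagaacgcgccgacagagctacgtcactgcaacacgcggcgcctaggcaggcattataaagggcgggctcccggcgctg
The motif reads GGAATG in the windows of Yap1 and Wwtr1 and CATTCC in that of Cyr61. Of these genes Cyr61 was at least 2-fold higher in basal cells, Yap1 was higher without reaching 2-fold, and Wwtr1 overlapped between the groups. A match is a description of the sequence and not evidence of binding.

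The kinases that restrain YAP and TAZ, together with their adaptors, were measured through 11 genes, Lats2 included. By limma 0 of 11 were called, 6 had an unadjusted p under 0.05 (5 of them higher in basal cells), and edgeR and DESeq2 each called 1, Taok3. Both basal libraries were higher for 8 genes and both luminal libraries for 2, and the median log2 fold change was -0.84, beside -0.10 over all genes. Without Lats2 the median was -0.67 over 10 genes, and both basal libraries were higher for 7. Over all genes tested, 18.5% had an unadjusted p under 0.05, and 27.3% and 23.6% had no overlap in these directions; edgeR and DESeq2 called 2.36% and 2.97% higher in luminal cells. Taok3, a kinase that can activate MST1 and MST2, differed most: it stood at 395 and 429 in basal 1 and 3 and at 1626 and 1714 in luminal 3 and 2. It was thus about the same within each group and 4.05 times higher in luminal cells, with a log2 fold change of 2.02 (SE 0.27, limma adjusted p 0.0574, edgeR adjusted p 0.00477). Map4k4, which can phosphorylate the LATS kinases directly, stood at 4359 and 4560 in the basal libraries and at 1336 and 2618 in luminal 3 and 2, with a log2 fold change of -1.25 (SE 0.36, limma adjusted p 0.150). Lats1, the paralog of Lats2, showed a smaller difference, with 4522 and 4826 in the basal libraries and 3175 and 3397 in luminal 3 and 2 (log2 fold change -0.51, SE 0.21, limma adjusted p 0.274).

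Upstream of the kinases, 14 genes of adhesion, polarity and scaffolding were measured. By limma 1 of 14, Fat1, was lower in luminal cells and 0 were higher, beside 0.438% and 0.256% of all genes. edgeR and DESeq2 each called 3 higher in basal cells, beside 2.72% and 3.11%. Both basal libraries were higher for 8 genes and both luminal libraries for 1, beside 27.3% and 23.6%, and the median log2 fold change was -0.68. Fat1, a giant cadherin, stood at 30994 and 27302 in the basal libraries and at 7396 and 7791 in luminal 3 and 2, with a log2 fold change of -1.94 (SE 0.22, limma adjusted p 0.0455). Its relative Fat2 stood at 18838 and 10367 against 1239 and 467 (log2 fold change -4.20, SE 0.54, limma adjusted p 0.0522). Ajuba, a LIM protein that binds and inhibits LATS kinases, stood at 2073 and 669 in the basal libraries and at 116 and 31 in luminal 3 and 2, where 31 is a single read (log2 fold change -4.27, SE 0.87, limma adjusted p 0.0705). For these 3 genes both basal libraries were well above both luminal libraries.

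Of 8 proteins that bind YAP, TAZ or TEAD, 6 could be tested, since Vgll1 and Vgll2 were listed at 0 in all libraries. By limma 0 of 6 were called, 3 had an unadjusted p under 0.05, all higher in basal cells (10.7% of all genes), and edgeR and DESeq2 each called 2 (Ptpn14 and Amotl1), beside 2.72% and 3.11% of all genes. The median log2 fold change of the 6 was -1.42, and -1.78 over the 5 without Amotl2. Against the basal average the median of the 6 was -1.60 for luminal 3 and -0.33 for luminal 2. Ptpn14, a phosphatase that retains YAP in the cytoplasm and is also a YAP target, stood at 16677 and 11290 in the basal libraries and at 1607 and 3179 in luminal 3 and 2 (log2 fold change -2.60, SE 0.40, limma adjusted p 0.0649). Amotl1 stood at 8442 and 6691 against 1936 and 2462 (log2 fold change -1.78, SE 0.25, limma adjusted p 0.0598). Vgll4, which competes with YAP for TEAD factors, stood at 1008 and 831 against 387 and 499 (log2 fold change -1.06, SE 0.32, limma adjusted p 0.170). Both basal libraries were higher for these 3 genes, beside 27.3% of all genes, and the groups overlapped for the other 3, Amot, Amotl2 and Vgll3.

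A wider list of 22 YAP and TAZ targets held the 4 targets above. Of these, 21 passed the filter, and Ankrd1, a classical YAP target in other tissues, did not: it stood at 75 in basal 1 and at 0 in the other libraries. Of the 21, 11 were at least 2-fold higher in basal cells and 1, Dock5, in luminal cells, beside 16.3% and 18.3% of all genes. No overlap was seen for 11 and 2 in these directions, beside 27.3% and 23.6%. Of the 2, Foxf2 rested on 2 reads in each basal library and 1 read in each luminal library. Its values were 13 and 13 in basal 1 and 3, 19 in luminal 3 and 31 in luminal 2, so its reads ran the other way from its values. limma called 1, Crim1, higher in basal cells (0.438% of all genes), edgeR 5 in basal and 1 in luminal cells (2.72% and 2.36%), and DESeq2 6 and 0 (3.11% and 2.97%). The median log2 fold change was -1.19 over the 21 genes and -0.82 over the 17 without the 4 targets above. Crim1, a transmembrane protein that binds bone morphogenetic proteins, stood at 6025 and 6333 in the basal libraries and at 562 and 997 in luminal 3 and 2 (log2 fold change -3.04, SE 0.33, limma adjusted p 0.0412). Rbms3, an RNA-binding protein, stood at 9137 and 7165 against 910 and 1807 (log2 fold change -2.66, SE 0.38, limma adjusted p 0.0624). Dock5, a guanine nucleotide exchange factor, went the other way with 989 and 1039 against 2130 and 2400 (log2 fold change 1.16, SE 0.23, limma adjusted p 0.0705). In 19 of the 21 genes luminal 2 was above luminal 3, as it was in all 4 targets described above.

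**Figure D5:**
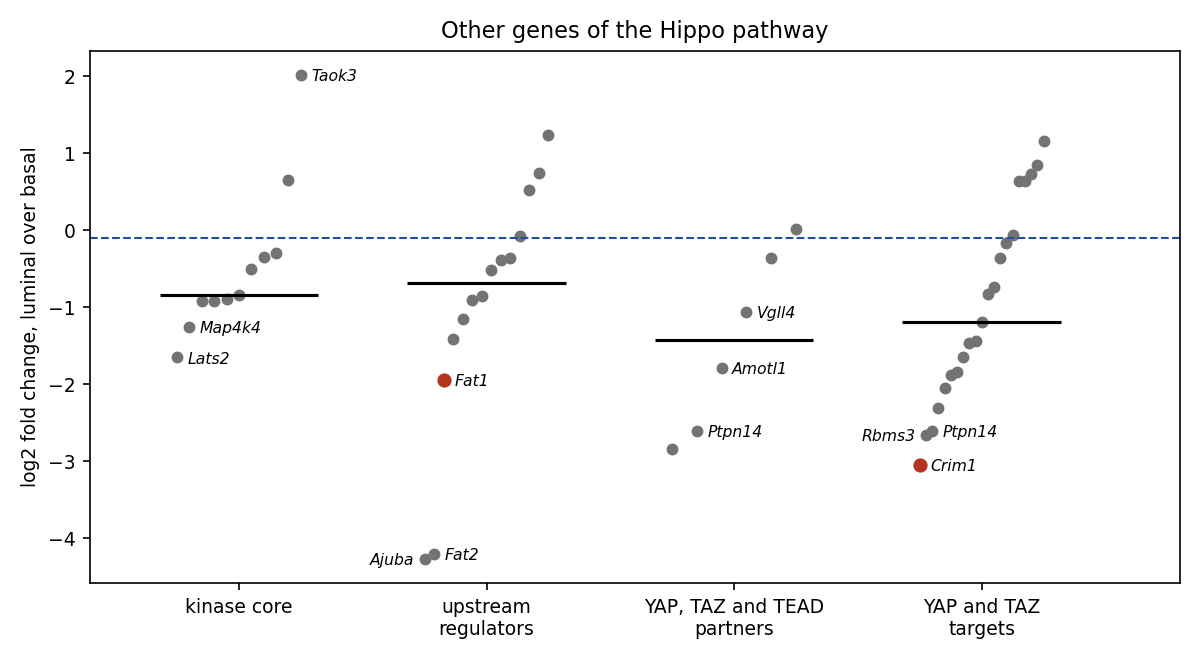
Log2 fold change of luminal over basal for the genes tested in 4 Hippo pathway lists, 1 point a gene, with black lines at the list medians and a dashed line at the median of all genes tested (-0.10). Red points, Fat1 and Crim1, passed a limma adjusted p under 0.05; Taok3 is the highest point at 2.02 and Ajuba the lowest at -4.27.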

How the data were processed

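RNA-seq of 2 basal and 2 luminal libraries was evaluated. The authors aligned reads to GRCm38/mm10 with STAR, obtained gene counts with HTSeq on Ensembl release 87, brought each library to the same number of aligned reads and deposited the scaled count as a signal per gene and library, rounded to whole numbers. Libraries were made with the Ovation Solo kit. Picard is named in the submitters' processing notes with no role. The treatment of duplicates, the counting mode and the use of strand are not given in the sources used here. All columns were mapped to a sample from their names, leaving 0 unmapped.

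The value of 1 read per library was found from the spacing of low values (up to 60 reads): 99.0%, 97.9%, 98.6% and 98.2% of them lay within 0.51 of a multiple in basal 1, basal 3, luminal 3 and luminal 2. Of all genes, 531 had values on another spacing, 0 of the 10 members among them, and recovered reads are estimates. A separate check of whole reads held for the other libraries but not for luminal 2, so its reads, their intervals and the edgeR and DESeq2 calls that use them carry that doubt. Wilson and Poisson intervals cover counting error only.

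Genes were tested if all libraries of either group reached 10 and that group averaged 20 or more; 18737 did so. limma 3.58.1 (R 4.3.3) was fitted to log2 of the value plus a pseudocount of 1, with cell type as the only term, a trended prior and Benjamini-Hochberg adjustment over all genes kept. Fold calls used ratios of group averages at 2 or 0.5. The recovered reads were tested with edgeR 4.0.16 (quasi-likelihood) and DESeq2 1.42.0. Alternatives changed the filter (none, or a strict form with every library at 10 or more and both groups averaging 20 or more), the pseudocount, the scaling, the prior, the fold threshold and the exon length, and left out each library in turn. P-values measure the spread between these libraries, which may be technical. Levels per kilobase used the union of annotated exons in GENCODE M21, which held 49412 of the 49671 gene identifiers, and overlaps were taken from it.

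The 10 genes, the pathway lists and the marker lists were chosen with earlier results of these data known. All 10 genes are named, and in each pathway list the 3 genes averaging 100 or more with the largest absolute fold change. Lats1, Dock5, Foxf2, Ankrd1, Amot and the Vgll genes other than Vgll4 were named after their values were seen. A gene of the likeness search is not reported here. Tables were handled with python 3.11.15, numpy 2.4.6, pandas 2.3.3, scipy 1.17.1 and statsmodels 0.14.6, and plots drawn with matplotlib 3.10.9.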

Additional observations from a re-analysis of the deposited data

How the results depend on the processing

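Limits included the 2 libraries per group and the low depth of the luminal libraries. In these, Tead2, Tead3, Tead4, Ctgf and Lats2 rested on 5 to 25 reads. No paired analysis was possible because the groups share only replicate number 3. Fold calls use no pseudocount, prior or model, so they have no value under those settings. The direction of 8 of the 10 genes was the same under the 14 alternatives for each. The exceptions were Tead2, which ran from -0.94 (without luminal replicate 2, limma adjusted p 0.392) to 1.41 (without luminal replicate 3), and Amotl2, which ran from -0.91 (without luminal replicate 2) to 0.21 (without luminal replicate 3, limma adjusted p 0.736). Over the alternatives the adjusted p (limma, edgeR or DESeq2) ran from 0.0141 to 0.571 for Tead1, 0.00648 to 0.576 for Ctgf, 0.0343 to 0.655 for Cyr61, 0.0657 to 0.640 for Lats2, 0.246 to 0.984 for Tead2 and 0.299 to 0.958 for Amotl2. When libraries were rescaled to nuclear protein-coding genes, the median over all genes became 0.21 in place of -0.10 (log2), and that of the 10 genes -0.53 in place of -0.84.

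The number of the 10 genes that limma called higher in basal cells was 0, and it was 2 under the strict filter, 2 with a pseudocount of 32, 2 by edgeR and 3 by DESeq2. The calls of all genes moved more: limma called 82 higher in basal and 48 higher in luminal cells, 0 and 0 without a filter, 409 and 269 under the strict filter, 34 and 20 with a pseudocount of 0.5, 394 and 274 with 32, 321 and 223 without the trended prior, 509 and 443 by edgeR, and 425 and 406 by DESeq2. Rescaled to nuclear protein-coding genes they were 62 and 63, and after quantile normalization 104 and 277. Leaving out a library gave 14 (without luminal replicate 2) to 751 (without basal replicate 3) in basal and 6 (without basal replicate 1) to 830 (without luminal replicate 3) in luminal cells. The causes were not tested.

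Past 2-fold were 3051 genes in basal and 3431 in luminal cells, 7806 and 6535 without a filter, 1792 and 1852 under the strict filter and 1133 and 1456 at 4-fold. Rescaled to nuclear protein-coding genes they were 2147 and 4551, while the counts among the 10 genes were 4 and 1. Leaving out a library gave 3760 to 5554 in luminal cells. Of the 10 genes, 4 in basal and 1 in luminal cells were past 2-fold, and 1 and 0 were past 4-fold. The basal count was 3 (without luminal replicate 3) to 6 (without luminal replicate 2), the luminal count 0 (without basal replicate 1) to 2 (without luminal replicate 3), and the median of the 10 genes was -1.41 (without luminal replicate 2) to -0.70 (without luminal replicate 3) when a library was left out.

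Shares and ratios depended on the length used. Without division by length the share of Tead1 was 90.2% in basal and 70.4% in luminal cells, that of Tead2 in basal cells 2.21%, that of Tead3 in basal cells 6.67%, that of Tead4 in luminal cells 8.45%, and the ratio of Wwtr1 to Yap1 was 0.938 in basal and 1.01 in luminal cells. By the longest transcript the share of Tead1 in basal cells was 75.7%, that of Tead3 in basal cells 16.2%, and the ratio in luminal cells 1.14.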
